A study of Mus musculus with 2 samples.

Results

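Natural killer (NK) cells of the mouse mammary gland were examined by single cell RNA sequencing in 1 library of control mice (Ctrl) and 1 library of mice given clodronate liposomes (CL), lipid vesicles carrying a drug that kills the phagocytes that engulf them. Cells were droplet-captured from dissociated glands of adult wild-type females, aged 9 to 10 weeks by the sample labels and 8 to 10 weeks by the protocol, and their strain was not given for these libraries in the sources used here. The sorted suspension held CD45+ immune cells together with cells negative for CD31 and TER119, and neither the mixing of these fractions nor the number of mice behind a library was stated. A cell was taken as an NK cell when the summed unique molecular identifiers (UMIs, which tag each molecule of RNA captured) of Ncr1, Klrb1c and Klre1 reached 2, the summed Cd3d, Cd3e and Cd3g did not exceed 1, Lyz2 stayed under 3 and Krt8, Krt18 and Krt14 together stayed under 10. This gave 136 NK cells of 15632 retained cells, 40 of 6297 in Ctrl and 96 of 9335 in CL. Since the members were selected on these measured UMIs, the levels of those genes are a description of the selection. Each treatment has 1 library, so differences between Ctrl and CL could not be set against the spread of replicates and were not tested. All intervals are exact 95% intervals in brackets and cover counting error only.

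NK cells are innate lymphocytes that kill stressed, infected or transformed cells without a rearranged antigen receptor. Whether they fire is set by a balance of activating and inhibitory surface receptors, many of them encoded side by side in the natural killer gene complex, which signal through small adaptor proteins. Killing is carried out by perforin and granzymes released from granules, and NK cells also secrete interferon gamma and chemokines. Conventional NK cells depend on the T-box factors Eomes and Tbx21 and circulate, whereas the related type 1 innate lymphoid cells (ILC1) stay in tissues, carry the integrin alpha-1 chain (Itga1) and share many NK receptors.

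The promoters of 3 marker genes, 1 that selected the cells and 2 that did not, are shown because T-box and RUNX factors are known regulators of NK genes. Each is the 250 bases before the RefSeq start on GRCm38.p6, with capitals marking the RUNX hexamer (TGTGGT, or ACCACA on the other strand) and the T-box hexamer (TCACAC, or GTGTGA on the other strand), which overlap nowhere in them.
Ncr1, chr7:4337465-4337714, plus strand: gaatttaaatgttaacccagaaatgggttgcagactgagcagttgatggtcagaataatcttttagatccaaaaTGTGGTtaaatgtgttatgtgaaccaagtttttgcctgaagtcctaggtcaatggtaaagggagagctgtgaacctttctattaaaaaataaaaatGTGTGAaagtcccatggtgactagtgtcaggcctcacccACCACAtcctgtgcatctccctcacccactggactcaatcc
Gzma, chr13:113100982-113101231, minus strand: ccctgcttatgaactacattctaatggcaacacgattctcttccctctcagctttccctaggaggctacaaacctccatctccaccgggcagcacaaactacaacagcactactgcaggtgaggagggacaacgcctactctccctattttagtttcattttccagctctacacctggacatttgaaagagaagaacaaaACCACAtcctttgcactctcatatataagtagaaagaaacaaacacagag
Nkg7, chr7:43436888-43437137, plus strand: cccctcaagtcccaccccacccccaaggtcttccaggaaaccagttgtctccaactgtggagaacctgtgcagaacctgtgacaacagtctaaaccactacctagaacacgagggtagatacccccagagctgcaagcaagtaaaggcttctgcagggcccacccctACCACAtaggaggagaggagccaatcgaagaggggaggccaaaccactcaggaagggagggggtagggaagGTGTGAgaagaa

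In Ncr1, the gene of the activating receptor NKp46, the RUNX hexamer stood 176 to 171 and again 41 to 36 bases before the start, and the T-box hexamer 80 to 75 bases before it. Gzma, which encodes the protease granzyme A, held 1 RUNX hexamer 50 to 45 bases before its start. In Nkg7, a granule membrane protein, the RUNX hexamer lay 83 to 78 bases and the T-box hexamer 12 to 7 bases before the start. Promoter records of 300 bases ran from 250 before to 50 after the start. Of these, only the 250 bases before the start were then searched, on both strands. The 6 marker genes (Ncr1, Klrb1c, Klre1, Gzma, Nkg7 and Xcl1) had 8 promoters in the table. Of these 8, 7 held the RUNX hexamer and 5 the T-box hexamer, where 14.0% and 12.3% of 32851 promoters with such a record held them. Of the 15 genes highest in NK cells over T cells (given at the end), 11 had a total of 14 promoters in the table, and 5 of the 14 held the RUNX hexamer and 1 the T-box hexamer. These sets share genes, since Gzma, Klrb1c and Klre1 were counted in both, which leaves Gzmc and Prf1 as the added genes with the RUNX hexamer and none with the T-box hexamer. These matches describe letters in a window and show no binding.

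The NK label was checked on markers outside the selection, against luminal and T cells but not against ILC1. The check thus could not tell NK cells from ILC1, which share many NK receptors, and members may include ILC1. Gzma (gene at chr13:113093825-113100981 on GRCm38) was found in 33 of 40 Ctrl members and 88 of 96 CL members, Nkg7 (chr7:43437073-43438249) in 38 and 92, and the chemokine gene Xcl1 (chr1:164931644-164935527) in 29 and 64. To compare these shares with other cells, each cell was thinned at random to 3069 UMIs, which left out 4 Ctrl and 11 CL members. Gzma was then found in 80.6% of Ctrl members and 88.2% of CL members, compared with 0.926% and 1.55% of keratin-rich luminal cells, which should lack it. The median depth before thinning was 4831.5 UMIs in Ctrl and 5284.5 in CL for members, and 13739 and 13055 for luminal cells. Nkg7 reached 94.4% and 95.3% of members against 0.340% and 1.17% of luminal cells. For Xcl1 the shares were 75.0% and 63.5% against 0.359% and 0.746%. T cells (Cd3 sum of 2 or more, NK gene sum of at most 1) share part of this program, with Gzma in 21.1% and 25.6% of them. Nkg7 was found in 68.4% and 64.3% of T cells and Xcl1 in 34.2% and 23.1%, so none of these markers is particular to NK cells. Only 1 of the 40 Ctrl members and none of the 96 CL members held no UMI of Gzma, Nkg7 or Xcl1, and the leukocyte gene Ptprc was seen in 39 and 96 members.

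**Figure D1:**
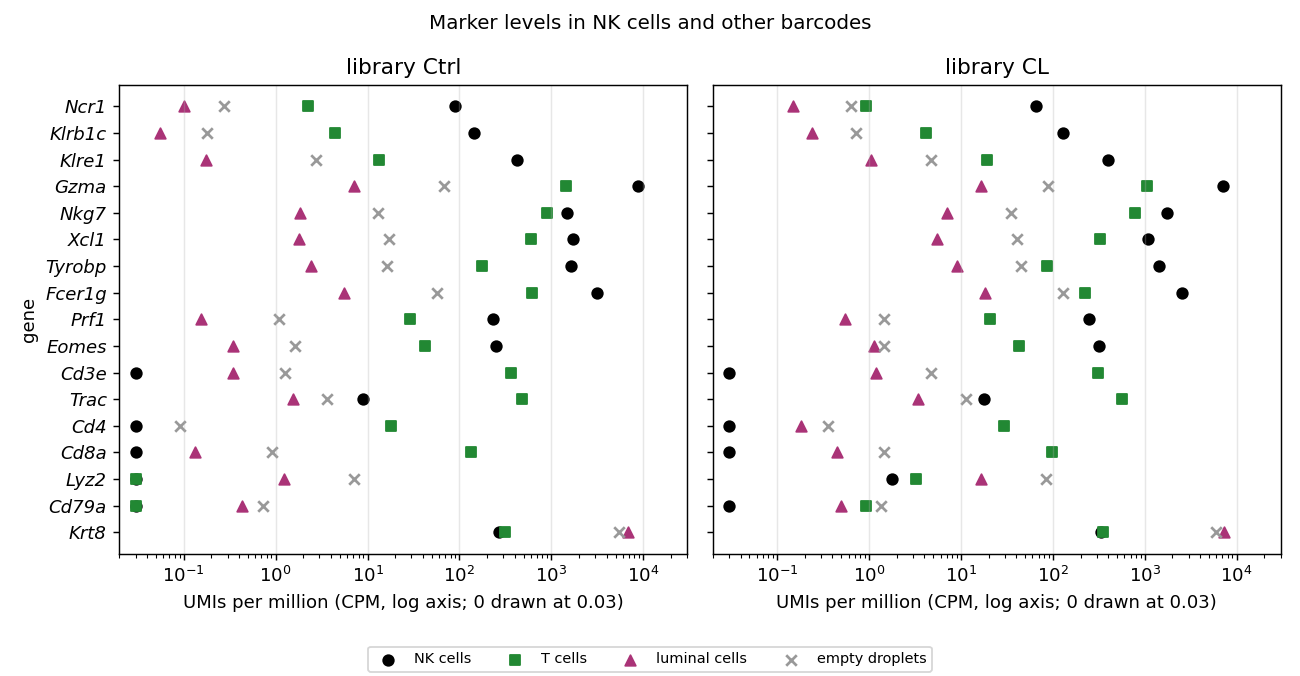
Levels of 17 marker genes in NK cells, T cells, luminal cells and empty droplets of the library Ctrl (left) and CL (right), in CPM (UMIs relative to all UMIs of the class) on a log axis, with 0 drawn at 0.03. Gzma stood at 8689 and 7165 CPM in NK cells and at 7.07 and 16.6 CPM in luminal cells. Cd4, Cd8a, Cd79a and Cd3e, which the selection limited, were at 0 in NK cells of both libraries.

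Defining markers of other immune cells were at or near 0. Of the T cell genes, Cd3e, Cd4, Cd8a, Cd8b1 and Cd5 had no UMI in any member, where the floor of 3 counts is 13.5 CPM (Ctrl) and 5.32 CPM (CL). The 3 Cd3 genes, which the selection held to a sum of at most 1 UMI per cell, summed to 2 UMIs in Ctrl and 4 in CL. Their low level, that of Cd3e included, thus describes the selection. Trac, outside the selection, summed to 2 and 10 UMIs. The constant segments of the T cell receptor beta chain were present, Trbc1 at 559 and 511 CPM and Trbc2 at 203 and 247 CPM, below the 957 and 811 CPM and 1433 and 1405 CPM of T cells. The B cell genes Cd79a, Cd79b and Ms4a1 were at 0. Lyz2, a myeloid gene used in the selection, summed to 0 and 1 UMI, and C1qa and C1qb likewise to 0 and 1. S100a9, a neutrophil gene, had 0 and 1 UMI. The ILC3 list had no UMI in Ctrl and 1 in CL. Exceptions were Itgax (CD11c), which mouse NK cells are known to carry, at 135 and 76.3 CPM, Kit with 1 and 24 UMIs and Ighm with 4 and 17. Epithelial genes summed to 1140.2 and 1223 CPM, compared with 20005 and 21114 CPM in empty droplets.

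Members rich in RNA of other cell types were nevertheless found, and whether they were other cells or mixed droplets was not tested. A Ctrl member with 8439 UMIs held 364 UMIs of fibroblast genes, among them 137 of Dcn, 70 of Col1a1 and 66 of Col1a2, with 2 of Klrb1c and none of Ncr1, Klre1, Gzma, Nkg7 or Ccl5. A CL member with 8778 UMIs held all 82 UMIs of Il5 and all 10 of Il1rl1 seen in CL NK cells, both genes of type 2 innate lymphoid cells, along with 3 UMIs of Klre1, 27 of Gzma and 107 of Ccl5. Both were kept, and the results they change are given without them. No NK barcode was shared between the libraries, although 22 barcodes were candidate cells in both. Free RNA, which droplets take up from the suspension, was described with 8 epithelial genes outside the rule: their summed level in members was 6.55% (Ctrl) and 6.36% (CL) of that in empty droplets, barcodes of 100 to 300 UMIs. The limit on keratins also bounds these genes, so the values are no measure of free RNA in NK cells.

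The treatment label was also checked. Over all retained cells, the sum of 9 myeloid markers was 74.8 CPM under the label Ctrl and 223 CPM under CL, a log2 ratio of CL over Ctrl of 1.57 [1.54, 1.61]. Without Lyz2 the other 8 summed to 62.5 and 87.9 CPM, a log2 ratio of 0.49 [0.45, 0.54]. Adgre1, which encodes the macrophage antigen F4/80, was at 1.41 and 2.77 CPM, and Csf1r, the receptor for macrophage growth factor, at 2.96 and 4.77 CPM. Empty droplets showed the same order, at 70.5 and 168 CPM of the 9 markers. These levels also follow how many leukocytes a library held. Ptprc-positive cells are here those with a Ptprc UMI and under 10 UMIs of Krt8, Krt18 and Krt14 together. They were 4.16% of the retained cells in Ctrl (262 of 6297) and 9.88% in CL (922 of 9335). Within these Ptprc-positive cells, compared after the first values were seen, the order turned for the sum without Lyz2, Adgre1 and Csf1r. The 8 markers without Lyz2 were at 2521 and 1307 CPM, a log2 ratio of −0.95 [−1.0, −0.89], Adgre1 at 74.0 and 51.4 CPM (−0.53 [−0.85, −0.20]) and Csf1r at 108 and 78.1 CPM (−0.46 [−0.73, −0.19]), whereas the 9 with Lyz2 were at 3159 and 3909 CPM (0.31). For the sum without Lyz2, Adgre1 and Csf1r the order thus depended on the cells they were set against. The sum of all 9 markers was higher in CL in both comparisons, so within Ptprc-positive cells the order depended on the markers. The libraries below are called by their labels.

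NK cells made up 0.635% [0.454, 0.864] of the cells retained under the label Ctrl and 1.03% [0.834, 1.25] under the label CL, with a log2 ratio of 0.70 [0.15, 1.27]. Set against other lymphocytes the order turned. Of NK and T cells together, NK cells were 31.7% [23.7, 40.6] in Ctrl (40 of 126) and 18.6% [15.4, 22.3] in CL (96 of 515), a log2 ratio of −0.77 [−1.31, −0.20]. Of Ptprc-positive cells, under the keratin limit given above, they were 14.9% [10.8, 19.8] and 10.4% [8.52, 12.6]. The log2 ratio was −0.52, with an interval [−1.07, 0.06] that includes 0. T cells alone went from 1.37% to 4.49% of retained cells. Treatment and the mixing of the sorted fractions cannot be told apart in the share of all cells. The log2 ratio of this share ranged from 0.33 to 0.79 over 8 alternative settings, and that among NK plus T cells from −0.95 to −0.67.

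**Figure D2:**
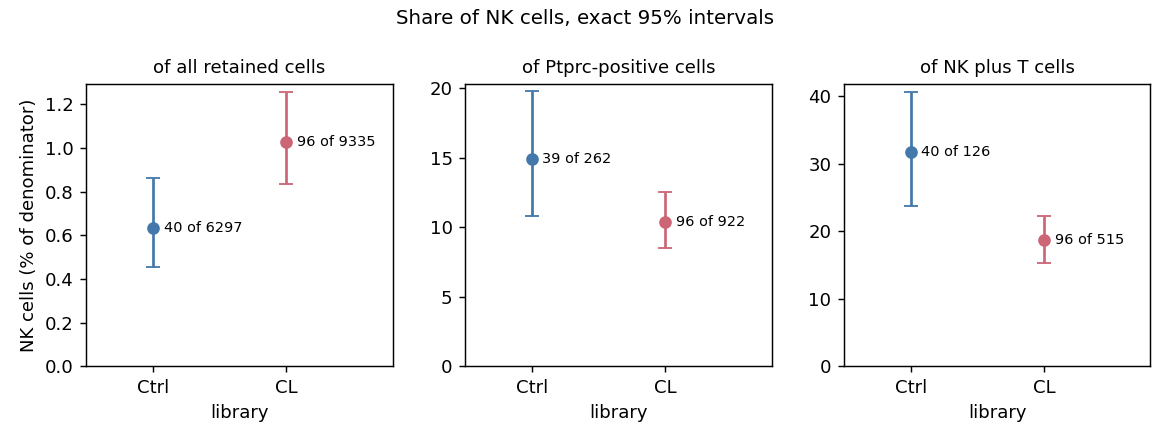
NK cells as a percentage of all retained cells, of Ptprc-positive cells and of NK plus T cells in the libraries Ctrl and CL, with exact 95% intervals and the counts beside each point. The share was higher in CL of all retained cells (1.03% against 0.635%) and lower in CL of NK plus T cells (18.6% against 31.7%).

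Cells close to the selection limit were compared without a test. Members with a summed Ncr1, Klrb1c and Klre1 of exactly 2 UMIs (19 in Ctrl, 42 in CL) had 8830.4 and 4947 CPM of Gzma and 1626 and 1363 CPM of Tyrobp. Cells just outside, with a sum of 1 (27 and 63), had 4576 and 5312 CPM of Gzma and 963 and 1307 CPM of Tyrobp. Both genes were thus present on either side of the limit. Cells with an NK sum of 2 or more but a Cd3 sum of at least 2 (18 and 44 after the other limits) had 369 and 403 CPM of Trac and 181 and 106 CPM of Cd8a, where members had at most 10 Trac UMIs in a library and no Cd8a UMI.

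To compare the libraries, the UMIs of all members of a library were summed (221901 in Ctrl, 563433 in CL) and given as CPM, so that every level below is relative to the total UMIs of NK cells. Among 1449 genes with a mean of at least 100 CPM over both libraries, 18 were at least 2-fold higher in CL (1.24%) and 31 at least 2-fold lower (2.14%). The median log2 ratio of all of them was −0.01, with 700 higher and 749 lower. Scaling with TMM factors in place of the totals moved the median to 0.08 and turned the counts of genes with at least a 2-fold difference to 28 higher and 24 lower, so no direction is read from ratios near 0. Counts of higher and lower genes in the lists below include such ratios.

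Activating receptors had a summed level of 1203 CPM in Ctrl and of 1510.4 CPM in CL, a log2 ratio of 0.33 [0.13, 0.53]. Of the 5 genes at 100 CPM or more, 3 were higher and 2 lower, with a median log2 ratio of 0.54. The 2 lower genes, Klrk1 and Klrc2 (−0.05 and −0.01), lay near 0 and turned positive under alternative settings. Only 1 of the 5 was at least 2-fold higher. That gene was Klra8, which encodes the receptor Ly49H for a viral glycoprotein, at 72.1 and 183 CPM (16 and 103 UMIs, 9 and 32 cells), a log2 ratio of 1.34 [0.57, 2.20]. Klra4, the activating Ly49D, stood at 225 and 328 CPM (0.54 [0.09, 1.02]), with 38.0% of its Ctrl UMIs in 1 cell and log2 ratios of 0.41 to 1.68 over 13 alternative settings. Cd2, an adhesion and costimulatory receptor, went from 113 to 202 CPM (0.84 [0.21, 1.53], and 0.23 to 0.98 over the alternatives). Klrk1, which encodes NKG2D, the receptor for stress ligands, differed little, at 352 and 339 CPM (−0.05 [−0.44, 0.35]). Among the receptors that selected the cells, Ncr1 was at 90.1 and 65.7 CPM, Klrb1c (NK1.1) at 144 and 128 CPM and Klre1 at 419 and 396 CPM. Klre1 was seen in 37 of 40 and 90 of 96 members, whereas Ncr1 was seen in 12 and 29, so that Klre1 did most of the selecting.

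Inhibitory receptors summed to 1460.1 and 1359.5 CPM, a log2 ratio of −0.10 [−0.29, 0.09], with 2 of 6 genes higher and 4 lower and a median of −0.04. Of these 4, Klra9 and Klrd1 (−0.06 and −0.03) lay near 0 and turned positive under alternative settings, so no direction is read from the count. Klra7 (Ly49G), an inhibitory receptor for MHC class I, was lower in CL at 306 and 202 CPM (−0.60 [−1.04, −0.14]), a direction that turned to 0.37 in the 22 Ctrl and 41 CL members with fewer than 3 keratin UMIs. Klra9 (Ly49I) stood at 198 and 189.9 CPM (−0.06, and −0.10 to 0.84 over 13 alternative settings) and Klrd1 (CD94), the partner of the NKG2 receptors, at 284 and 279 CPM. Klrc1, which encodes the inhibitory NKG2A, was at 113 and 176 CPM (0.64 [0.00, 1.34], and −0.08 to 1.51 over 13 alternative settings). Klra1 (Ly49A), another inhibitory receptor, was at 126 and 74.5 CPM (−0.76 [−1.48, −0.02]) and was lower under all 13 alternative settings, from −1.04 to −0.29. Members of the Klra family thus lay on both sides, with Klra8 and Klra4 higher and Klra1 lower in CL. All 18 genes of the Klr type among the listed receptors lie on chromosome 6 (GRCm38), and 17 of them fall within chr6:128609227-130386874, the natural killer gene complex, with the 6 Klra genes in its last 343144 bases. Reads of Klra genes may be split between near-identical copies.

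The adaptors that couple these receptors to kinases summed to 6264 and 5683 CPM, a log2 ratio of −0.14 (0.030 among members with fewer than 3 keratin UMIs), with 3 of 6 genes higher and 3 lower. Tyrobp (DAP12), the partner of activating Ly49 receptors, was at 1627 and 1443 CPM (−0.17 [−0.35, 0.01]) and was present in 38 of 40 and 93 of 96 members. Fcer1g, the Fc receptor gamma chain used by NKp46 and CD16, was at 3141 and 2533 CPM (−0.31 [−0.44, −0.18]). Hcst (DAP10), the partner of NKG2D, stood at 243 and 259 CPM. Sh2d2a, an adaptor that binds Lck, was at 550 and 760 CPM (0.47 [0.17, 0.77]) while Lck itself was at 162 and 97.6 CPM (−0.73 [−1.37, −0.08], and −0.77 to −0.09 over 13 alternative settings).

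Genes of the cytotoxic granule, without Gzma, had a summed level of 7666 CPM in Ctrl and of 5791 CPM in CL, a log2 ratio of −0.40 [−0.49, −0.32]. Of 9 genes 7 were lower, Lamp1 at only −0.02, and 2 higher, with a median of −0.26, and 1 of 9 was at least 2-fold lower. That gene was Gzmb, encoding granzyme B, the protease that starts caspase-driven death of the target, at 2348 and 1136 CPM (−1.05 [−1.22, −0.88]). Gzmb made most of the difference between the sums. Besides it, only Gzmc and Srgn had intervals below 0, and Srgn turned to 0.019 among members with fewer than 3 keratin UMIs. A Gzmb UMI was found in 35 of 40 and 76 of 96 members, with a lowest, median and highest of 0, 6 and 80 UMIs in Ctrl and 0, 4 and 63 in CL, so the cells of both libraries overlapped over nearly the whole range. Gzmb was lower in T cells of CL too, at 843 and 545 CPM.

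Gzmc, a granzyme linked to strongly stimulated killers, was seen in few members, 10 in Ctrl and 12 in CL. Its 599 and 316 CPM (−0.92) rested on single cells, since 56.4% of the Ctrl UMIs and 30.9% of the CL UMIs came from 1 cell, and the log2 ratio was −0.30 without these. It was 0.22 among the 38 and 92 members with no Cd3 UMI. Prf1, which encodes the pore protein perforin, was at 229.8 and 250.3 CPM (0.12 [−0.35, 0.61], and −0.30 to 0.82 over 13 alternative settings). Srgn, the proteoglycan that packs granzymes, was at 2569 and 2279 CPM in 39 and 96 members, and Serpinb9, an inhibitor that shields the killer from granzyme B, at 469 and 385 CPM. The interval of Prf1 lay above that of Gzmb.

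Gzma was at 8689 [8305, 9085] CPM in Ctrl and 7165 [6946, 7390] CPM in CL (−0.28 [−0.36, −0.20]). Its spread within a library was wide, with a lowest, median and highest of 0, 26 and 292 UMIs per cell in Ctrl and 0, 33 and 357 in CL. The 5 highest Ctrl cells held 46.9% of its UMIs there and the 5 highest CL cells 24.7%. The share of cells with a UMI (80.6% and 88.2% after thinning) went the other way from the CPM, so no order is read from either. Nkg7 was at 1487 and 1764 CPM (0.25 [0.07, 0.43]), with a median of 7.5 UMIs per cell in both libraries.

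**Figure D3:**
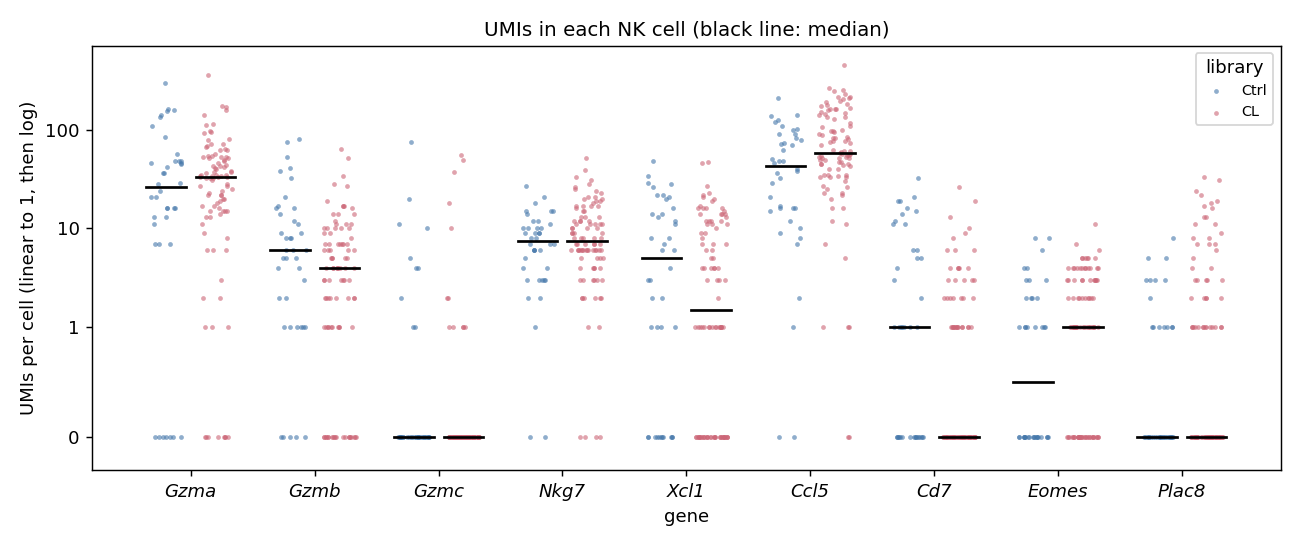
UMIs of 9 genes in each NK cell of the libraries Ctrl (40 cells) and CL (96 cells) on an axis that is linear to 1 and logarithmic above, with the median as a black line. Cells of both libraries overlap for every gene drawn, and Gzmc rests on a few cells with up to 75 UMIs in Ctrl and 55 in CL.

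Secreted cytokines and chemokines summed to 10820.1 and 15988 CPM, a log2 ratio of 0.56 [0.50, 0.63], with 4 of 4 genes above the minimum higher, Ccl4 and Tgfb1 by only 0.04 and 0.01, and a median of 0.18. The sum was set by Ccl5, a chemokine that draws T cells and myeloid cells, at 9779 and 14916 CPM (0.61 [0.54, 0.68]) and with a lowest, median and highest of 0, 43 and 208 UMIs per cell in Ctrl and 0, 58.5 and 451 in CL. T cells had 12606 and 13535 CPM of it, a log2 ratio of 0.10. Ifng, the hallmark NK cytokine, was at 108 and 135 CPM (0.32 [−0.36, 1.05]), seen in 12 and 32 members. Ccl4 stood at 347 and 357 CPM, with log2 ratios of −0.81 to 1.65 over 13 alternative settings, and Tgfb1 at 523 and 527 CPM. Tnf had 3 and 2 UMIs. Xcl1, which attracts cross-presenting dendritic cells, went the other way from Ccl5, at 1726 and 1072 CPM (−0.69 [−0.87, −0.50]), as it did in T cells (601 and 329 CPM). Fasl, the death ligand that engages Fas, was at 207 and 124 CPM (−0.74 [−1.30, −0.17], and −0.95 to −0.14 over 13 alternative settings).

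Transcription factors of the lineage summed to 5282 and 5644 CPM, a log2 ratio of 0.10 [0.00, 0.19], with 6 of 11 genes higher and 5 lower. Of the T-box pair, Tbx21 (T-bet) stood at 221 and 135 CPM (−0.71 [−1.25, −0.16]) and Eomes at 248 and 318 CPM (0.36 [−0.09, 0.82]), a ratio that was −0.08 when the CPM of single cells was averaged. Eomes was found in 38.9% [23.1, 56.5] of Ctrl and 56.5% [45.3, 67.2] of CL members after thinning. Irf8, needed for antiviral NK responses, was at 1636 and 1952 CPM (0.26 [0.08, 0.43]) and was 3.06 and 4.32 higher on the log2 scale than in T cells. Runx3 (798 and 815 CPM), Id2 (820.2 and 898 CPM) and Ets1 (406 and 385 CPM) had log2 ratios of 0.03, 0.13 and −0.07. Foxo1, which restrains NK maturation, was at 243 and 162 CPM (−0.59 [−1.09, −0.08]). Among these factors Bcl11b, a T cell identity gene, had no UMI in either library.

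Cytokine receptors and their signalling genes summed to 5264 and 4851 CPM, a log2 ratio of −0.12, with 6 of 12 genes higher and 6 lower. Il2rb, the chain through which NK cells receive IL-15, was at 1559 and 1356 CPM in 39 and 95 members. The receptor genes with at least a 2-fold difference were Il18rap, a chain of the IL-18 receptor, at 104 and 250.3 CPM (1.27 [0.63, 1.98]; 12 and 53 cells), and Il21r at 306 and 124 CPM (−1.30 [−1.80, −0.80]; 24 and 32 cells). Over 13 alternative settings the log2 ratio of Il18rap ran from 0.73 to 2.47 and that of Il21r from −2.21 to −0.92. Tgfbr2 was at 144 and 83.4 CPM (−0.79 [−1.47, −0.09]), while Jak1 was at 424 and 426 CPM.

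Genes of trafficking and tissue residency summed to 5854 and 3740 CPM, with 8 of 11 genes lower, 3 higher and 2 at least 2-fold lower. Of the 8, Ccr2 and Itgal (−0.003 and −0.04) lay near 0 and turned positive under alternative settings. The median log2 ratio was only −0.11, since Rgs1 made most of the difference, and without it the sums were 2406 and 2238 CPM (−0.10 [−0.25, 0.04]). Rgs1, which dampens chemokine receptor signalling and is high in resident lymphocytes, was at 3447 and 1502 CPM (−1.20 [−1.34, −1.06]). Cd69, which holds lymphocytes in tissue, was at 302 and 147 CPM (−1.04 [−1.52, −0.55]). In T cells the log2 ratios were −0.47 for Rgs1 and 0.33 for Cd69. Cxcr4, a receptor for homing to bone marrow, was at 180.3 and 282 CPM (0.65 [0.14, 1.18]). Below 100 CPM, Itgae (CD103), a residency integrin, had 14 and 11 UMIs (−1.69 [−2.98, −0.45]).

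Conventional NK genes and ILC1 genes were then set side by side. Conventional NK genes summed to 2605 and 3219.6 CPM, a log2 ratio of 0.31 [0.17, 0.44], with 4 of 5 genes higher. Eomes, Irf8, Klra4 and Klra8 were higher and Klra9 was at −0.06. Below 100 CPM, Cma1, a chymase gene, was at 40.6 and 85.2 CPM (1.07), while Zeb2, a factor of terminal maturation, was at 99.1 and 65.7 CPM (−0.59 [−1.39, 0.24]) and S1pr5, a receptor for leaving tissue, had 3 and 2 UMIs. ILC1 genes summed to 1573 and 616 CPM, a log2 ratio of −1.35 [−1.57, −1.13], with both genes at 100 CPM or more at least 2-fold lower. These were Cd7, a surface glycoprotein of early and innate lymphocytes, at 937 and 296 CPM (−1.66 [−1.96, −1.36]), and Il21r. Cd7 made most of the difference between the sums, and its 5 highest cells held 51.4% of its UMIs in Ctrl and 46.1% in CL. Itga1, the integrin chain that defines ILC1, was at 85.6 and 16.0 CPM, with 19 UMIs in 12 Ctrl members and 9 in 7 CL members (−2.42 [−3.75, −1.21]). Of the other 8 listed genes, all with few UMIs, 6 were lower and 2 higher. Inpp4b, a phosphoinositide phosphatase, had 11 and 8 UMIs and an interval below 0 [−3.32, −0.36]. Il7r had 4 and 6 UMIs, Tnfsf10 had 5 and 8, and Cd200r1 had 1 and 1, with intervals that include 0. Ltb was at 49.6 and 30.2 CPM (−0.72) and Tmem176a at 36.1 and 33.7 CPM (−0.10), whereas Tmem176b was at 45.1 and 55.0 CPM (0.29) and Cxcr6 at 18.0 and 19.5 CPM (0.12), with intervals that include 0 for all 4. The ILC1 sum stayed lower in CL under all 13 alternative settings, from −1.98 to −0.76, Cd7 on its own from −2.33 to −1.0, and Cd7 was lower in T cells of CL as well, at 458 and 171 CPM (−1.43).

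**Figure D4:**
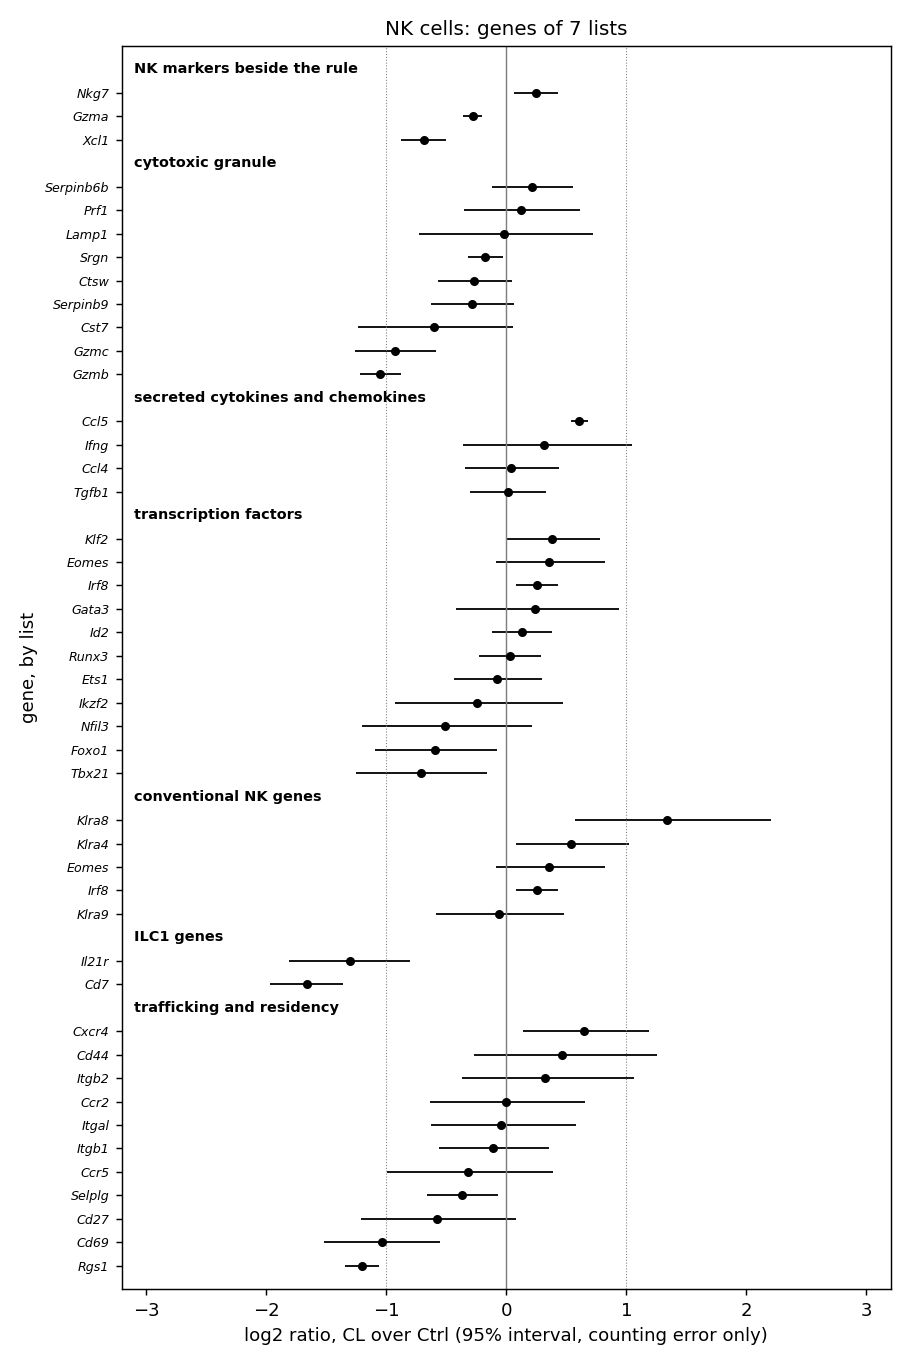
Log2 ratios of CL over Ctrl in NK cells with 95% intervals from counting error for the genes of 7 lists with a mean of at least 100 CPM, and dotted lines at a 2-fold difference. Cd7, Il21r and Rgs1 lie to the left at −1.66, −1.30 and −1.20, and Klra8 to the right at 1.34.

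Single members were then examined after thinning (36 in Ctrl, 85 in CL). A UMI of a conventional NK gene was found in 97.2% and 98.8% of members, a share largely set by Irf8, which alone was seen in 88.9% and 95.3%. Without Irf8 the list was seen in 80.6% and 80.0% of members, compared with 12.9% and 11.6% of luminal cells. The full ILC1 list was seen in 80.6% and 62.4% of members but in 88.3% and 86.5% of luminal cells, so no presence of ILC1 genes is read from it. Without Tmem176a and Tmem176b, left out after these values were seen, it was found in 75.0% [57.8, 87.9] and 55.3% [44.1, 66.1] of members, in 4.34% and 8.56% of luminal cells and in 89.5% and 81.1% of T cells.

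Cd7 was seen in 20 of 36 Ctrl members (55.6% [38.1, 72.1]) and 30 of 85 CL members (35.3% [25.2, 46.4]), compared with 0.208% and 0.493% of luminal cells and 40.8% and 21.7% of T cells. A Klra gene, of 6 that include Klra1, Klra3 and Klra7, was seen in 75.0% and 78.8% of members and in 0.151% and 0.506% of luminal cells. Of the Cd7-positive members, 15 of 20 and 22 of 30 had a Klra UMI, whereas 6 of 20 (30.0%) and 13 of 30 (43.3%) had an Eomes UMI. Eomes was seen together with Itga1 or Il21r in 6 Ctrl and 15 CL members.

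Members with and without a Cd7 UMI were compared as a description, since this split was chosen after its values were seen. Cd7-positive members carried more Rgs1 in both libraries, at 16.0 UMIs per thinned cell against 3.31 in Ctrl and 8.57 against 2.58 in CL. Gzmb was at 9.85 against 3.50 and 5.23 against 2.55. Gzmc lay almost wholly in Cd7-positive members, at 3.10 against 0 UMIs per cell in Ctrl and 2.70 against 0.0182 in CL. Tnfrsf9 (4-1BB), a costimulatory receptor induced by activation, was at 2.75 against 0.50 and 1.57 against 0.782. Cd7-negative members had more Ccl5, at 49.4 against 24.6 and 60.9 against 38.9, and more Eomes, at 1.69 against 0.400 and 1.31 against 0.867. Klf2, a factor of circulating lymphocytes, was at 2.50 against 0.650 and 1.8 against 0.90. Xcl1, Klra4, Cd69, Klra8, Klre1, Klrb1c, Plac8, Trbc1 and Tbx21 differed in direction between the libraries, some by little. Xcl1 was at 4.90 in Cd7-positive against 6.69 in Cd7-negative members of Ctrl and 3.80 against 3.60 in CL. Cd69 was at 0.90 against 0.375 in Ctrl and 0.467 against 0.545 in CL. Rgs1, Gzmb and Tnfrsf9 were lower in CL than in Ctrl within the Cd7-positive members themselves, and what the share of such members adds was not tested.

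**Figure D5:**
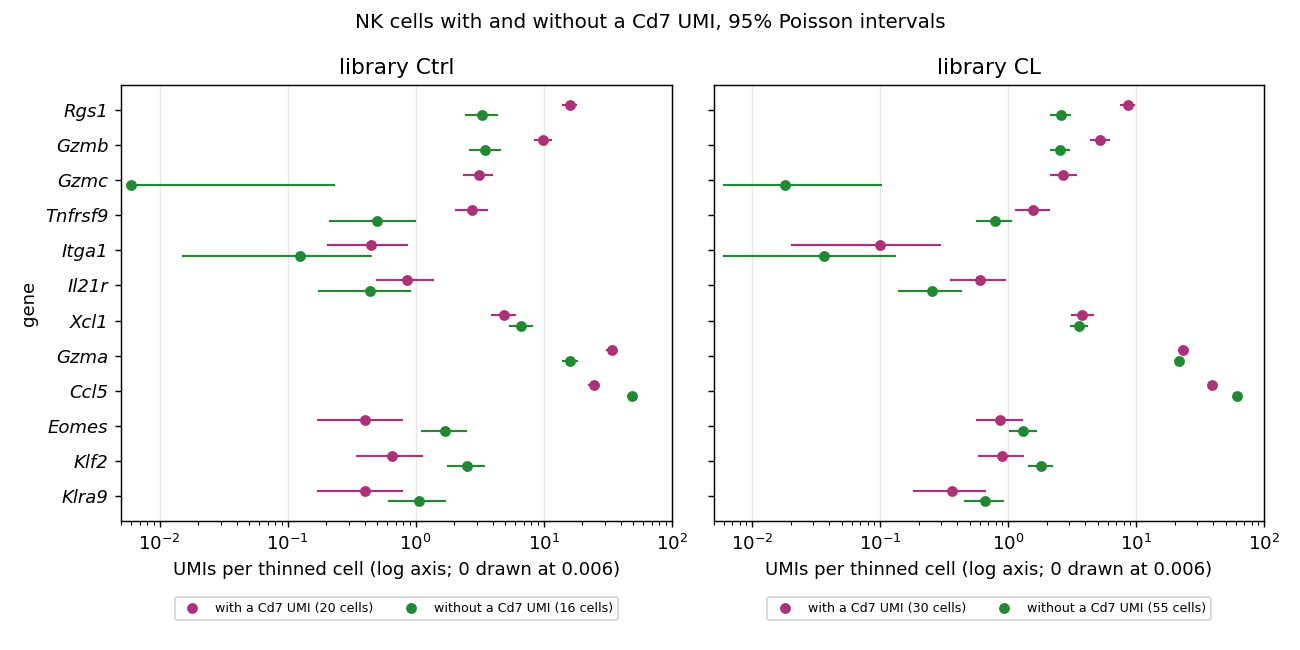
UMIs per thinned NK cell of 12 genes in members with (20 in Ctrl, 30 in CL) and without (16 and 55) a Cd7 UMI, on a log axis with 95% Poisson intervals and 0 drawn at 0.006. Rgs1, Gzmb and Gzmc lie higher in Cd7-positive members and Ccl5, Eomes and Klf2 higher in Cd7-negative members of both libraries.

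Immediate early and heat shock genes, which tissue dissociation induces, summed to 6386 and 3456 CPM, a log2 ratio of −0.89 [−0.99, −0.79]. All 10 were lower in CL, 5 of them at least 2-fold, with a median of −0.97, and only Dusp1 lost this direction (0.18), among members with fewer than 3 keratin UMIs. In T cells the log2 ratio of the sum was −0.35. Junb was at 2519 and 1429 CPM (−0.82) and Fos at 694 and 415 CPM (−0.74). Single Ctrl cells carried part of the sum, with 69.4% of Ctrl Egr1 UMIs and 62.0% of Ctrl Hspa1a UMIs in 1 cell. Without the member richest in these genes in each library the log2 ratio of the sum was −0.70. Without the fibroblast-rich and Il5-rich members it was −0.68, and Egr1 (−0.08) and Hspa1a (−0.92) were then less than 2-fold lower. Empty droplets held 13095 CPM of these genes in Ctrl and 11743 CPM in CL, and the part of free RNA was not tested. Recent activation genes were lower as well, at 4178 and 3056 CPM (−0.45) with 7 of 7 genes lower, of which Nr4a1 and Nfkb1 (both −0.02) turned positive under several settings, up to 0.41 and 0.47 with an NK gene sum of at least 3, and Nfkbia (−0.36) to 0.20 among members with fewer than 3 keratin UMIs. Nr4a2, an early response receptor, was at 973 and 696 CPM and Tnfrsf9 at 676 and 351 CPM. Rgs1, Cd69, Cd7 and Gzmb were lower in the same library as the dissociation genes, and the part of dissociation in those differences was not tested.

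Interferon-stimulated genes, at 712 and 637 CPM, gave a log2 ratio of −0.16 [−0.43, 0.12]. MHC class I and antigen processing genes summed to 12023 and 10198 CPM (−0.24), with 5 of 6 genes lower, among them B2m, the light chain of class I, at 2438 and 2030.4 CPM (−0.26). Division genes were rare, at 437 and 709.9 CPM (0.70). Stmn1, a microtubule regulator of dividing cells, was at 139.7 and 282 CPM, and Top2a, a topoisomerase of S phase and mitosis, had 3 UMIs in Ctrl and 34 in CL. A single CL cell held 15.2% of the division UMIs of that library. ILC2 genes summed to 478 and 662 CPM (0.47), a direction that turned to −0.26 without the Il5-rich and the fibroblast-rich member.

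Beyond the listed genes, the highest log2 ratio of CL over Ctrl was that of Plac8, a small cysteine-rich protein of leukocytes, at 176 and 589 CPM (1.75 [1.26, 2.26]), with 39 UMIs in 15 Ctrl members and 332 in 46 CL members. T cells had 676 and 573 CPM of it and empty droplets 376 and 543 CPM. The log2 ratio was 0.82 among members with fewer than 3 keratin UMIs and ranged up to 2.65 over 13 alternative settings. It was followed by Rilpl2 (49.6 and 156 CPM, 1.66), Tkt, the pentose phosphate enzyme transketolase (58.6 and 151 CPM, 1.36), Klra8, Serpinb9b, a serpin of the granzyme inhibitor family (72.1 and 177 CPM, 1.30), and Il18rap. The next were Arl4d, Zfp52, Nfatc1, Snhg3, Ttc39b and Tln1, from 1.23 to 1.12. Tln1 encodes talin, which switches on integrins, and was at 108 and 234 CPM. Each rested on 11 to 39 UMIs in Ctrl. A single cell held 8 of the 16 Ctrl UMIs of Serpinb9b, whose log2 ratio ran from 1.19 to 3.08 over the alternatives. Those of Rilpl2 (1.48 to 2.36), Tkt (0.93 to 2.1), Nfatc1 (0.81 to 1.76), Snhg3 (0.51 to 1.32) and Tln1 (0.71 to 1.77) moved by more than 1.5-fold as well, without a change of direction.

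At the lower end, Col1a2, Sparc, Dcn, Col1a1, Col3a1, Ccn1 and Gsn came mostly from the fibroblast-rich Ctrl member and not from NK cells in general, with 66 Col1a2 UMIs in Ctrl, all in that cell, and 0 in CL. Without that member and the Il5-rich member, 19 genes were at least 2-fold higher and 25 at least 2-fold lower, and Gsn turned to 0.71. Among the remaining lowest ratios were Hspa1b, Hspa1a and Egr1 (−2.37, −2.28 and −1.75) and Rnf149, a ubiquitin ligase, at 176 and 53.2 CPM (−1.72 [−2.46, −1.0]). Without the member of each library richest in the gene, Egr1 was at −0.18, Hspa1a at −1.38 and Hspa1b at −2.30, and without the fibroblast-rich and Il5-rich members at −0.08, −0.92 and −1.71.

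Finally, NK cells were compared with the T cells of the same library (86 in Ctrl, 419 in CL), as a description, since the rule chose cells low in Cd3. Of 1196 genes with at least 100 CPM in NK cells of both libraries, the 15 with the highest log2 ratio in the lower of the libraries were led by Klra4, at 5.66 in Ctrl and 6.46 in CL. The rule genes Klrb1c (5.02 and 4.93) and Klre1 (4.97 and 4.37) came next, then Klrb1b, an inhibitory receptor (3.72 and 5.46), and Klra9 (3.89 and 3.67). Tyrobp (3.19 and 4.06), Irf8 (3.06 and 4.32), Prf1 (2.99 and 3.61), Gzma (2.58 and 2.78), Eomes (2.55 and 2.89) and Fcer1g (2.36 and 3.50) were among the rest. The list also held Gzmc, Rab27b, a GTPase of granule release, Lyn, a Src-family kinase (2.69 and 2.44), and Car2, a carbonic anhydrase (2.76 and 3.48). By group, conventional NK genes were 2.98 and 3.97 above T cells, adaptors 1.09 and 1.33, and granule genes 0.73 and 0.41, all on the log2 scale of summed CPM. Against CD8 T cells alone, conventional NK genes were 4.12 above in Ctrl and 4.08 in CL. Ccl5 did not separate the cell types, at −0.37 in Ctrl and 0.14 in CL.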

How the data were processed

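Droplet libraries of dissociated mouse mammary glands were sequenced, 1 per treatment label. The authors deposited raw UMI counts as unfiltered matrices of 32285 genes by 6794880 barcodes, without normalization and with empty droplets. The file headers name Cell Ranger 4, whereas the submitters' processing notes name Cell Ranger 2.1.1 and mm10. Total UMIs were 118743318 in Ctrl and 155765480 in CL. No column of another sample was present (0). The deposited lists of 7217 and 10555 cell barcodes did not index the matrix columns, so as many barcodes with most UMIs were taken as candidates. Cells with at least 500 genes and at most 15% mitochondrial UMIs were kept.

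Members and gene lists were chosen with earlier results of these data known. Klra4, first listed as inhibitory, was moved to the activating receptors after its values were seen. Named genes were members of the lists, the 12 highest and 12 lowest ratios above 100 CPM, and the 15 genes highest over T cells, leaving out genes without a name, haemoglobins, ribosomal and mitochondrial genes and, as sex-linked, Xist, Tsix and Y genes. Values of 3 genes are not reported here. Cells were thinned without replacement to the 10th percentile of Ctrl NK cells. Intervals were Clopper-Pearson (shares), Poisson (CPM) and conditional binomial (ratios), at 95%, and UMIs count molecules. Scrublet in scanpy 1.11.5 marked 360 Ctrl cells but 0 CL cells at its automatic threshold, where it had not worked. Doublets were therefore kept, with the highest 6% of scores left out as an alternative, which marked 0 NK cells. TMM factors came from edgeR 4.0.16 in R 4.3.3. Other work used Python 3.11, numpy 2.4.6 and scipy 1.17.1. Positions are from GENCODE M21 on GRCm38, which held 32158 of the gene identifiers, and promoters from RefSeq. Reads of the Klra and H2 families, Hspa1a and Hspa1b may be split between copies. Scripts were tested on simulated data. Alternatives changed the limits on genes, mitochondrial, NK, Cd3 and keratin UMIs, doublets, scaling, minimum CPM, thinning depth and the T cells compared.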

Additional observations from a re-analysis of the deposited data

How the results depend on the processing

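No paired analysis was possible because each group has 1 library. Counting intervals leave out differences between animals, and alternatives in which a library had 0 UMIs of a gene gave no value. Alternatives gave 1978 values in all, of which 1821 stayed within their interval or, for counts of genes, within 1.5 times, 146 moved out of it, and 11 turned a sign whose interval had excluded 0, 3 for lists and 8 for genes. The summed granule, cytokine, conventional NK, ILC1 and stress genes, the comparisons with T cells, the shares and the counts of genes made up 131 of these values, of which 98 stayed within and 33 moved, with none of the 11 turns among them. Every share ratio of NK cells stayed within.

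With an NK gene sum of at least 3 (21 Ctrl and 54 CL cells) the log2 ratio of CL over Ctrl was −0.59 for granule genes, −1.58 for ILC1 genes, −0.61 for stress genes and 0.68 (reversed) for Gsn, with 31 genes at least 2-fold higher and 53 lower. With a sum of at least 1 (67 and 159 cells) it was 0.48 for cytokines and −0.76 for ILC1 genes, with 10 genes higher. With no Cd3 UMI it was −0.30 for granule genes, 0.44 for cytokines and 0.22 (reversed) for Gzmc. With under 3 keratin UMIs it was 0.65 for cytokines, −1.98 for ILC1 genes and −0.77 for stress genes, with 55 genes higher and 86 lower, and the sign turned for adaptors (0.030), Klra7 (0.37), Srgn (0.019), Dusp1 (0.18) and Nfkbia (0.20). Only 22 and 41 cells were left there.

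When the CPM of single cells was averaged, the ratio was −0.27 for granule genes and 0.50 for cytokines. With TMM factors it was −0.31 and 0.66, with 28 genes higher. With a total free of mitochondrial and ribosomal genes 50 genes were lower. At a minimum of 50 CPM 50 genes were higher and 102 lower, at 200 CPM 4 and 10, and with no minimum 2932 and 2465. Against CD8 T cells alone NK granule genes in CL were 0.34 higher, and adaptors 1.26 and conventional NK genes 4.12 higher in Ctrl. Thinned to the 25th percentile 100% of Ctrl members had a conventional NK gene.

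Further alternatives were chosen after seeing the data. Without the fibroblast-rich and Il5-rich members the ratio was −0.68 for stress genes, −0.26 (reversed) for ILC2 genes and 0.71 (reversed) for Gsn. Without the richest member of each library it was −0.70 for stress genes, −0.15 (reversed) for ILC2 genes and 0.53 (reversed) for Gsn. The cause of these shifts was not tested beyond the cells left out.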
